A study of Mus musculus with 70 samples.

Results

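LLC is a mouse lung cancer cell line from a C57BL/6 animal, and its RNA without any cytokine was set against that of 7 other mouse cancer lines grown the same way. The comparison took all 3 unstimulated (NS) LLC libraries of the 70 libraries in the series, and the 20 NS libraries of the other lines, for all genes. The other lines were the melanoma lines B16.1 and YUMMER1.7, the colorectal lines CT26.2 and MC38.7, the pancreatic lines KPC.2 and Panc02.3, and the renal line Renca. The strain of origin was BALB/c for CT26.2 and Renca and C57BL/6 for the rest. Each had 3 NS libraries except Renca with 2, and each line had the same weight in the mean of the 7. No line carries an added gene or deletion in the labels, and all were kept in DMEM with 10% serum. In the same series the lines were also given 1000 units/mL of interferon beta (IFNb) or 100 ng/mL of interferon gamma (IFNg) for 48 hours, and those libraries serve here as a repeat of the comparison. The comparison asks what sets the lung line apart before any cytokine.

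A carcinoma line often keeps part of the programme of its tissue of origin. Alveolar and airway cells depend on the transcription factor Nkx2-1 and make surfactant proteins or secretoglobins, while cells that have moved towards a mesenchymal state lose E-cadherin and keratins and make vimentin, collagens and matrix proteases. LLC was derived from a spontaneous lung tumour of a C57BL mouse and is widely used as a transplantable tumour. Tumour cells also differ in their resting interferon tone, the low level of STAT2 and IRF9 activity that keeps antiviral and antigen-presentation genes expressed without added cytokine.

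The LLC libraries were the deepest of the set, with 13824012 to 18877470 estimated counts, against 4125643 to 13203908 in the other NS libraries. Mitochondrially encoded transcripts took 1.95% to 2.13% of counts in LLC and 1.56% to 4.89% in the others. Levels are given as CPM, the counts of a gene scaled to library size, after TMM normalisation, and 15337 of 35197 genes had enough counts to be tested. Summed levels of gene lists are the exception. They are scaled to library size without the TMM factors, which ran from 0.905 (YUMMER1.7) to 1.14 (Renca). Overlap of summed levels is judged on that scale. A gene is called higher or lower in LLC where edgeR's quasi-likelihood test gave an adjusted p (Benjamini-Hochberg over all tested genes) under 0.05 and the difference from the mean of the 7 lines, taken on the log2 scale, was at least 2-fold. The standard error (SE) is the spread between libraries of a line and not between lines, and nothing in the labels says that replicates were grown apart, so that spread may be technical. For genes with 3 or fewer counts in some line the fitted difference depends on the model's prior. Such genes are given by a floored log2 difference, in which that line was set to 3 counts (0.0639 CPM in LLC) and which has no SE.

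LLC differed from the mean of the other lines in 3171 genes, 20.7% of those tested. Of these, 1999 were higher (13.0%) and 1172 lower (7.64%), while 9868 genes (64.3%) had an adjusted p under 0.05 at any size. The shares 13.0% and 7.64% are the background for the counts of every gene list in unstimulated cells below. Of the tested genes, 4399 had 3 or fewer counts in some line. A gene at 0 CPM in another line could have a very large SE and so go uncalled when low in LLC. In lists with many such genes a small count of lower genes therefore cannot show that few were lower. The median log2 difference over all tested genes was 0.06, or 0.02 when floored. DESeq2 on the same counts called 1691 higher and 2051 lower, and limma-voom 1850 and 2761. In limma with 1 value for each line, so that the error is the spread between lines, 17 genes were higher and 4 lower, among them Adcyap1r1, Hhip, App and Rcan3. The mean of 7 lines lies low on the log scale wherever some of them are near 0, and only 703 of the 1999 higher genes were also at least 2-fold above the arithmetic mean of the 7 lines. In 393 genes called higher (2.56% of those tested) all 3 LLC libraries also lay above all 20 others, and in 206 called lower (1.34%) all 3 lay below all 20. Without YUMMER1.7 the first count was 592, and without B16.1 the second was 318. Counted in the same way for each line against its 7 others, B16.1 had 1115 genes above and 881 below, CT26.2 895 and 613, and KPC.2 1402 and 549. MC38.7 had 679 and 434, Panc02.3 802 and 479, Renca 1293 and 816, and YUMMER1.7 1048 and 179. LLC therefore had the smallest count above of the 8 lines, and YUMMER1.7 alone had fewer below.

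Set against single lines, LLC was nearest to MC38.7 and farthest from Renca by the number of genes at least 2-fold apart. That number was 4005 (26.1% of tested genes, 14.5% higher and 11.6% lower) against MC38.7 and 4317 (28.1%, 10.3% higher and 17.8% lower) against YUMMER1.7. It was 5162 (33.7%, 16.9% and 16.8%) against CT26.2 and 5203 (33.9%, 18.7% and 15.3%) against B16.1, higher given before lower. For Panc02.3 it was 5323 (34.7%, 16.7% and 18.0%), for KPC.2 5661 (36.9%, 15.6% and 21.3%) and for Renca 6207 (40.5%, 19.3% and 21.1%). These 7 comparisons share the LLC libraries and differ in depth on the other side, so they are given side by side only.

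The lineage factor and the secreted products of lung epithelium were absent or near 0 in LLC, while some other members of the list were expressed. Nkx2-1, the lung lineage factor, had 0 counts in LLC, as did the surfactant proteins Sftpa1, Sftpc and Sftpd, the club cell protein Scgb1a1, Scgb3a2 and the phosphate transporter Slc34a2. Sftpb had 2 counts, Lamp3 1 and Scgb3a1 2 in the 3 LLC libraries together, and a count of 0 over LLC allows up to 0.0639 CPM. The other lines were as empty: Nkx2-1, Sftpa1, Sftpd and Scgb3a2 had 0 counts in all of them. The rest of these genes had no more than 3 counts in any line. Of the 20 alveolar and airway markers 10 were too low to test, 2 were higher, 2 lower and 6 not called. Over all tested genes 13.0% were higher and 7.64% lower. Their summed level was 65.2 to 70.5 CPM in the LLC libraries, against 39.6 to 366 CPM in the others, so the groups overlapped. The 2 higher members were Hopx, a homeodomain protein of alveolar type I cells, at 7.52 ± 0.989 CPM (SD, n = 3), and Foxa2, a forkhead factor of endoderm, at 13.8 ± 1.40 CPM. Foxa2 was higher still in the pancreatic lines KPC.2 (96.3 ± 5.60 CPM) and Panc02.3 (36.8 ± 3.56 CPM). Abca3, the lipid transporter of surfactant, was among the members not called, at 45.8, 46.2 and 46.1 CPM in LLC against 9.18 to 173 CPM (median 63.9) in the others (log2 difference −0.37 ± 0.05), and its groups overlapped. Napsa, an aspartic protease that processes surfactant, and Aqp5, a water channel, were lower. That call was lost for Napsa without replicate 2 of YUMMER1.7 (log2 difference −3.09) and for Aqp5 without replicate 1 of B16.1 (−4.32). The basal marker Krt5 had 0 counts in LLC and at most 2 in any other line. Trp63, the basal cell factor, read 0, 0.111 and 0.0639 CPM in LLC and 0 to 6.31 CPM (median 0.0442) in the others. Nkx2-1, surfactant and secretoglobin transcripts thus did not bear out the label of lung cancer, whereas Abca3, Hopx and Foxa2, which other lines also make, were expressed, and the line is called LLC below.

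Some epithelial adhesion genes were absent or near 0 in LLC, while simple keratins and the tight junction gene Ocln were higher. Epcam, an epithelial adhesion molecule, had 0 counts in LLC and 0 to 4.95 CPM (median 0) in the others, with KPC.2 highest. For Epcam 7 of the 8 lines, LLC among them, had 3 or fewer counts. Cdh1, which encodes E-cadherin, had 3 counts over the 3 LLC libraries. Among the others Cdh1 ranged over 0 to 934 CPM (median 1.21), with KPC.2 highest, and it was not called. Of 22 tested epithelial genes 5 were higher and 2 lower (8 higher without KPC.2, 5 lower without B16.1 and 4 lower without Panc02.3), with a median log2 difference of −0.82 (−1.25 floored). The higher ones included the keratins Krt8 at 171 ± 8.44 CPM, Krt18 at 124 ± 6.16 CPM and Krt19 at 17.0 ± 1.22 CPM, and the tight junction protein Ocln at 9.49 ± 0.323 CPM (SD, n = 3 each). KPC.2 was above LLC for all 4, with Krt8 at 2024 ± 92.1 CPM, and LLC lay above B16.1, MC38.7 and YUMMER1.7 for all 4. The fifth was the desmosome gene Pkp3 (1.26 floored), and Jup, plakoglobin, was lower (−2.16 ± 0.16). Of 15 mesenchymal genes 10 were higher and 1 lower, with a median of 2.01 (1.57 floored). Without B16.1 the count was 7 higher with a median of 0.88, and without KPC.2 it was 3 lower. Among them were the transcription factors Prrx1 (4.76 floored), Snai2 (3.93 floored) and Twist1 (2.95 floored). The summed level of the mesenchymal list was 7071 to 7171 CPM in the LLC libraries, inside the 1118 to 19394 CPM of the others.

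Vim, the intermediate filament vimentin, read 4312, 4394 and 4363 CPM in LLC, against 843 to 6899 CPM (median 2056) in the 20 others (log2 difference 1.01 ± 0.05). Its groups overlapped, and the call was lost without replicate 1 of Panc02.3 (0.98) and without replicate 2 of Renca (0.997). Acta2, smooth muscle actin, read 14.6, 15.4 and 16.4 CPM in LLC and 0 to 4.86 CPM (median 0.191) in the others (floored log2 difference 5.25). All 3 LLC libraries lay above all 20. S100a4, a calcium-binding protein of motile cells, was chosen after its values were seen as the other member apart from all lines, at 917, 964 and 975 CPM in LLC against 0.208 to 806 CPM (median 122) in the others (log2 difference 3.79 ± 0.05). Fn1, fibronectin, was under the 2-fold limit (log2 difference 0.99 ± 0.07) and past it without replicate 2 of KPC.2 (1.001), replicate 2 or 3 of LLC (1.01 each) or replicate 2 of Renca (1.05). Where markers of a cell type are low in the bulk RNA of a cultured line, fewer cells making them and less RNA per cell cannot be told apart.

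Few markers of melanocytes, pancreas, kidney and leukocytes were higher in LLC. Over all tested genes 13.0% were higher and 7.64% lower. Of 14 tested melanocyte genes 0 were higher and 2 lower, of 7 pancreatic genes 0 and 2, and of 10 kidney genes 0 and 3 (5 lower without Panc02.3). Without B16.1, itself a melanoma line, 3 melanocyte genes were higher. Of 13 intestinal and stomach genes 3 were higher and 3 lower, the higher ones including the homeobox gene Cdx2 (2.73 floored) and Muc2, and 1 was lower without KPC.2 or without Panc02.3. Muc2, a gel-forming mucin, stood at 0.260 CPM in LLC, and KPC.2 reached 1.86 CPM; floored, its log2 difference was 0.67, under the 2-fold limit. Of 6 leukocyte genes 1 was higher, the lysozyme gene Lyz2 at 1.46 ± 0.189 CPM, and the summed level of that list was 7.88 to 9.96 CPM in the LLC libraries, against 2.81 to 65.2 CPM in the others. Of 3 endothelial genes 0 were higher, and Pecam1, an adhesion protein of endothelium, was lower (log2 difference −2.08 ± 0.33).

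The promoters of 4 genes from the widest gaps between LLC and all other lines, in either direction, are shown for their sequence content. Each is 300 bases long, from 250 before to 50 after the start in RefSeq on GRCm38.p6, printed 5′ to 3′ on the gene's strand, with every CG in capitals. CG was the only motif searched, it reads the same on both strands, and a match is a description. Adcyap1r1 (promoter chr6:55451728-55452027, plus strand) and Peg3 (chr7:6730370-6730669, minus strand) were high in LLC, and App (chr16:85173658-85173957, minus strand) and Rcan3 (chr4:135433756-135434055, minus strand) were low or absent.
Adcyap1r1: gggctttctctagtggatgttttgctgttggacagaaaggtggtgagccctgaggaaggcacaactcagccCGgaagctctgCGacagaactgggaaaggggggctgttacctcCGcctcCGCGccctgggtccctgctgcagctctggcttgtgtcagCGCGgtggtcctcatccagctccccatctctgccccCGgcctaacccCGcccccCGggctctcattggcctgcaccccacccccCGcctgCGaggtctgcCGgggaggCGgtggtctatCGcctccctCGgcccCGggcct
Peg3: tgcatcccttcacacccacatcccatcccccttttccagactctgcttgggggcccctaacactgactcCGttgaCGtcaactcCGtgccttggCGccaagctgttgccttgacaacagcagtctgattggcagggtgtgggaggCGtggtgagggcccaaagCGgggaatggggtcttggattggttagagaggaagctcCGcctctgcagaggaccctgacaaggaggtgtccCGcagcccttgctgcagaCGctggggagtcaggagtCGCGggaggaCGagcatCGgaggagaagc
App: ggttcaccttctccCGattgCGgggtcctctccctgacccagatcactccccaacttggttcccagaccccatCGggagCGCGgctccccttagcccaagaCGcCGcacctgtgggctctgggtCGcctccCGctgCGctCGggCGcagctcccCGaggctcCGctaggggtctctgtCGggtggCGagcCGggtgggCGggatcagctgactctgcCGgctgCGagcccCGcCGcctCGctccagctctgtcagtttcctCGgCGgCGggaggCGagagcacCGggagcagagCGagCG
Rcan3: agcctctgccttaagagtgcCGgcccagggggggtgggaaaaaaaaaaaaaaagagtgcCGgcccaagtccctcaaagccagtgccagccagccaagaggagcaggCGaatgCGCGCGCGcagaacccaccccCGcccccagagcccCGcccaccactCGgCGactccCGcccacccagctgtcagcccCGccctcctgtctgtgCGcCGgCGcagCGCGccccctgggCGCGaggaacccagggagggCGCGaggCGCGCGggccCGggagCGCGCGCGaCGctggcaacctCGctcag
The Adcyap1r1 promoter holds 17 CG and that of Peg3 13, against 30 for App and 32 for Rcan3. Of 27025 promoters, 31.9% hold at least as many as Adcyap1r1, 38.5% as Peg3, 11.5% as App and 9.24% as Rcan3. Of the 15 named genes with the widest gap above the other lines 12 had a promoter in the table, with a median of 11.5 CG (2 to 30). Of the 15 with the widest gap below 11 had one, with a median of 27 (3 to 32). The ranges overlapped almost wholly, with Hhip at 30 among the high genes and Otub2 at 3 among the low. The 4 promoters printed thus do not stand for their groups. These contrasting medians were not seen over the larger sets: the median was 20 over the 288 of the 393 genes above all other libraries that had a promoter and 21 over 167 of the 206 below, beside 20 over the 11158 tested genes with a promoter and 7 over all 27025.

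Among genes above all other lines, Adcyap1r1 (chr6:55451978-55501451), the receptor for the neuropeptide PACAP, read 95.4, 96.5 and 92.8 CPM in the 3 LLC libraries, against 0 to 0.0884 CPM (median 0) in the 20 others. LLC held 4459 counts and the 20 others together 1, a ratio of CPM of 16718 with a 95% counting interval from 2999 to 660479 (edgeR adjusted p = 9.1e-18). The transcript was therefore seen in LLC and hardly anywhere else. Hhip (chr8:79965851-80058006), a membrane protein that binds and restrains Hedgehog ligands, read 23.9, 24.1 and 25.0 CPM in LLC and 0 to 0.0862 CPM (median 0) in the others, a ratio of 2143 (592 to 17715). Peg3 (chr7:6703892-6730431), an imprinted zinc finger gene expressed from the paternal allele, read 157, 155 and 145 CPM in LLC and 0 to 11.4 CPM (median 0) in the others (floored log2 difference 9.23, edgeR adjusted p = 3.1e-23). KPC.2 was the one other line with Peg3 above 1 CPM, and its libraries stayed far below LLC. Adcyap1r1, Hhip and Peg3 were chosen by the widest gap to all other libraries. Their p-values and intervals come from the same values, so they describe the gap and are no separate evidence for it.

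Inpp5d, the lipid phosphatase SHIP1 known from blood cells, read 40.3, 48.1 and 44.4 CPM in LLC, against 0 to 1.14 CPM (median 0) in the others (floored log2 difference 7.71). Slc38a4, an amino acid transporter that is imprinted in the mouse, read 123, 117 and 114 CPM in LLC and 0 to 10.6 CPM (median 0.0408) in the others (floored log2 difference 8.72). Mgmt, the enzyme that repairs alkylated guanine in DNA, read 7.90, 8.55 and 8.24 CPM in LLC and 0 to 0.221 CPM (median 0) in the others. None of these groups overlapped, which follows from the choice of these genes by the widest gap to all other libraries. The rest of the 15 widest gaps upward were Chst5, Cnrip1, Snrpn, Prdm6, Scn9a, Crtam, March1, Lgi2 and Slc9b1, with floored log2 differences between 5.36 and 6.74. Snrpn, a splicing protein from the imprinted Prader-Willi region, read 7.45, 8.83 and 7.54 CPM in LLC and 0 to 0.245 CPM (median 0) in the others. Scn9a encodes a voltage-gated sodium channel, Crtam an adhesion receptor of lymphocytes, and March1 a ubiquitin ligase that removes MHC class II from the surface.

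Among genes below all other lines, App (chr16:84949685-85173766), the amyloid precursor protein, which nearly every cell type makes, read 1.58, 1.39 and 1.21 CPM in LLC, against 231 to 1132 CPM (median 557) in the 20 others. The highest LLC library was thus far below the lowest of the others (log2 difference −8.59 ± 0.08, edgeR adjusted p = 1.3e-29). Rcan3 (chr4:135412308-135433853), a regulator of the phosphatase calcineurin, had 0 counts in all 3 LLC libraries and 26.24 to 77.5 CPM (median 34.3) in the others, so it was at least 688-fold lower than the mean of the lines, 44.0 CPM. Manea, an endomannosidase of the Golgi, read 0.452, 0.222 and 0.256 CPM in LLC and 17.7 to 71.0 CPM (median 41.2) in the others (log2 difference −6.92 ± 0.16). Every other line expressed all 3 genes in every library. Spata6, a sperm flagellum protein, had 1 count in LLC and 11.7 to 51.3 CPM (median 27.2) in the others, which put the others 1378 times higher (95% counting interval 247 to 54443). Camk2n1, an inhibitor of the kinase CaMKII, had 2 counts in LLC and 5.26 to 184 CPM (median 35.1) in the others, or 1083 times higher in the others (299.7 to 8944). App, Rcan3, Manea, Spata6 and Camk2n1 were likewise chosen by the widest gap. The p-value and intervals given for them are no separate evidence for that gap.

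Kank1, an adaptor that links focal adhesions to microtubules, read 0.151, 0.111 and 0.192 CPM in LLC and 2.29 to 107 CPM (median 29.8) in the others (log2 difference −7.27 ± 0.18). Foxo1, a forkhead factor restrained by AKT, read 3.09, 2.72 and 2.04 CPM in LLC and 9.54 to 89.1 CPM (median 24.6) in the others (log2 difference −3.21 ± 0.13). Add3, a protein of the membrane skeleton, read 7.60, 7.66 and 6.52 CPM in LLC and 26.19 to 91.2 CPM (median 53.2) in the others (log2 difference −2.83 ± 0.07). The groups did not overlap for any of the 3, which follows from their choice by the widest gap to all other libraries. The other named genes with wide gaps below were Zfp362 (−7.26 ± 0.20), Fbxo44, Dock6 (−3.27 ± 0.09), Otub2 (−3.40 ± 0.19), Scand1 (−3.06 ± 0.12), Map6 (−3.06 ± 0.09) and Stau2 (−2.73 ± 0.11). Fbxo44 read 0, 0.111 and 0 CPM in LLC and 3.41 to 40.0 CPM (median 14.3) in the others. Rcan3, Camk2n1, Spata6, Fbxo44, Zfp362 and Manea lie on chromosome 4, which held 26 of the 206 genes below all other lines, 12.7% of those with a position, while it holds 6.13% of tested genes. Of their nearest tested neighbours, Nipal3 next to Rcan3 (fitted log2 difference −4.15), Fbxo2 next to Fbxo44 (−4.71) and Epha7, the distant neighbour of Manea (−6.02 floored), were also lower. The neighbours on the other side of these 3 were not called, with Fbxo6 next to Fbxo44 at 0.08 and Ncmap next to Rcan3 at 0.24. Nor were those of Camk2n1, Spata6 and Zfp362, with Mul1 next to Camk2n1 at −0.25 and A3galt2 next to Zfp362 at 0.73. Trim62 next to Zfp362 stood at 0 CPM in LLC and 5.03 in the mean of the others. Fut9 next to Manea stood at 0 and 2.86 CPM, and Dmrta2 next to Spata6 at 0.301 and 6.98 CPM. Each of these 3 was at 0 CPM in another line and had a fitted SE of 36.2 or more, so its test could not decide. Gabpa, the neighbour of App on chromosome 16, had a log2 difference of 0.38.

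**Figure D1:**
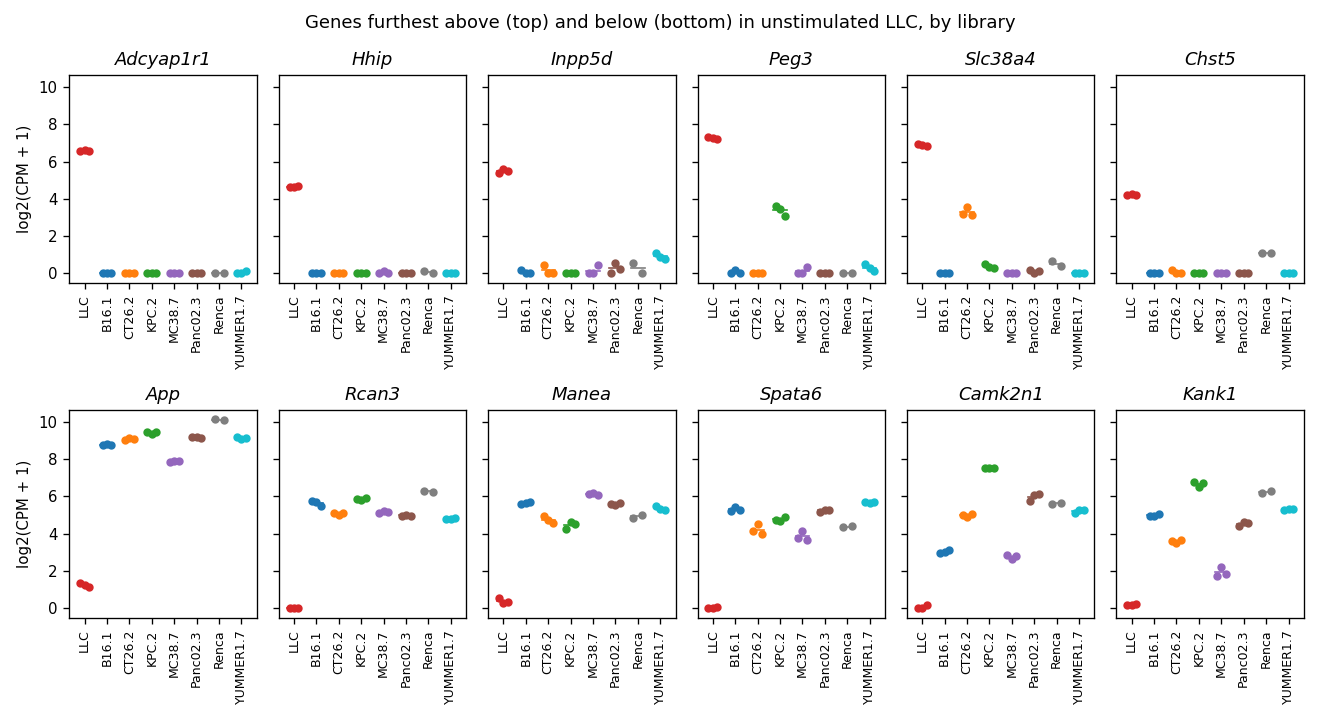
Level of 12 genes in each of the 23 NS libraries, as log2(CPM + 1) on the vertical axis; the 8 lines stand along the horizontal axis and each point is 1 library and each short bar the mean of a line. For the 6 genes of the upper panels the LLC points stand above all 20 others, and for the 6 of the lower panels they lie below all 20 others, near 0 except for App.

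The widest rises among genes with more than 3 counts in each line were Epb41l3, a membrane skeleton protein, at 96.3, 98.5 and 98.2 CPM in LLC against 0 to 47.1 CPM (median 0.883) in the others (6.10 ± 0.09), and Pcolce2, an enhancer of procollagen processing, at 100.3, 102 and 101 CPM in LLC against 0 to 22.6 CPM (median 2.81) in the others (5.19 ± 0.07). All LLC libraries were above all 20 others for both. They were followed by Cd248 (5.06 ± 0.11), the receptor chain Il18rap (4.68 ± 0.09), Apc2 (4.63 ± 0.08), the elastic fibre protein Emilin1 (4.63 ± 0.07), Sema3e (4.51 ± 0.09), the myelin protein gene Mbp (4.30 ± 0.11), the vasoactive peptide Adm (4.29 ± 0.12) and the histone variant gene H2afy2 (4.20 ± 0.13). Il18rap was higher in YUMMER1.7, at 186 ± 19.7 CPM, than in LLC, at 148 ± 4.01 CPM (SD, n = 3 each). Of the 10 widest falls, App, Kank1, Zfp362 and Manea are given above. The other 6 were Sspn (−7.18 ± 0.27, −7.81 without replicate 3 of LLC), a partner of dystrophin, Igsf3 (−6.66 ± 0.46), and the interferon-inducible Apol9b (−7.50 ± 0.51), Oasl2 (−6.54 ± 0.44), Ifih1 (−6.37 ± 0.37) and Gbp3 (−6.30 ± 0.39).

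Of the 42 gene lists, that of interferon-stimulated genes held the most falls. Of 36 genes tested 30 were lower in LLC and 0 higher, beside 7.64% and 13.0% of all tested genes, with a median log2 difference of −3.65 (−3.68 floored) against 0.06 for all genes. The other 6 were not called. With any 1 of the other lines left out 27 to 32 were lower, with a count of 27 and a median of −2.82 without YUMMER1.7. Their summed level was 176 to 181 CPM in the LLC libraries, against 313 to 10966 CPM in the others. Gene by gene, LLC had the lowest mean of the 8 lines for 11 of the 36. For the rest another line was as low or lower. The lowest other library stood at 0 CPM in KPC.2 for Rsad2 and Trim30a, and in B16.1 for Oas1a and Oas3. Low levels of single genes in this list were thus not particular to LLC. Ifih1, which encodes the RNA sensor MDA5, read 0.151, 0.167 and 0.128 CPM in LLC and 0.333 to 239 CPM (median 18.5) in the 20 others (edgeR adjusted p = 1.0e-13). Gbp3, a guanylate-binding protein, read 0.151, 0.0555 and 0.0639 CPM in LLC and 0.232 to 306 CPM (median 4.52) in the others. LLC lay below all 20 for both, as it did for Bst2, Gbp2 and Lgals3bp, which were chosen after their values were seen.

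Isg15, a ubiquitin-like modifier also chosen after its values were seen, read 1.13, 1.05 and 0.831 CPM in LLC and 0.412 to 691 CPM (median 32.6) in the others (log2 difference −4.74 ± 0.23). Its groups overlapped, since the lowest other library was under LLC. The helicase gene Ddx60 (−5.80 floored), the antiviral GTPase Mx2 (−5.66 floored) and Oasl1 (−7.27 floored) had 3 or fewer counts in LLC or in another line and were lower. Cmpk2 and Oas2 were not called: Cmpk2 had 0 counts in LLC and 0 to 209 CPM (median 8.61) in the others, and Oas2 had 0 to 210.2 CPM (median 2.301) in the others. For both, 2 of the other lines also had 3 or fewer counts.

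**Figure D2:**
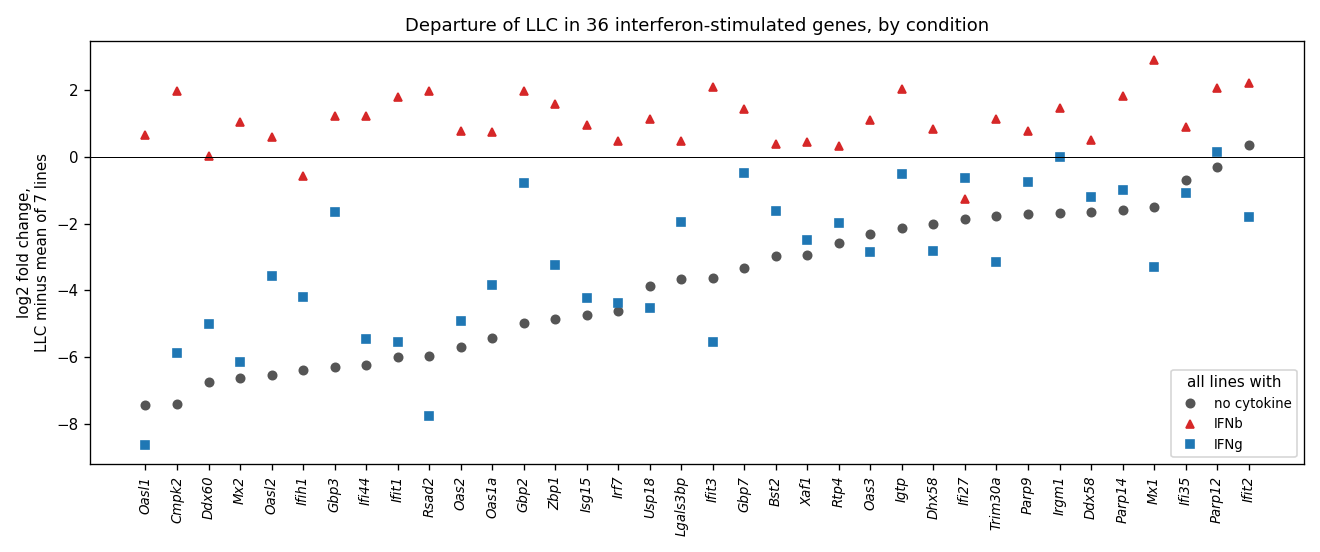
Fitted log2 difference of LLC from the mean of the 7 other lines for the 36 interferon-stimulated genes, without cytokine, with IFNb and with IFNg, each from its own libraries; each point is 1 gene and the line at 0 marks no difference. Without cytokine 30 genes were called lower, with IFNb 19 were called higher and 1 lower, and with IFNg 29 were called lower; points are fitted values, and Cmpk2 had 0 counts in unstimulated LLC.

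With cytokine, LLC's place among the lines differed between IFNb and IFNg for these genes. In IFNb libraries, fitted by themselves, 19 of the 36 genes were higher in LLC than in the mean of the other lines and 1 lower, with a median of 1.07. Backgrounds in that comparison were 14.0% higher and 7.95% lower of 14796 genes. In IFNg libraries 0 were higher and 29 lower, with a median of −3.00 (backgrounds 13.3% and 8.54% of 15126). Isg15 in LLC read 1.13, 1.05 and 0.831 CPM without cytokine, 593, 618 and 626 CPM with IFNb and 14.1 and 12.9 CPM with IFNg. Of the 17 interferon receptor and signalling genes 2 were higher and 5 lower (3 lower without KPC.2). The lower ones included the signal transducer Stat2 (−1.84 ± 0.10) and its partner Irf9 (−1.58 ± 0.09). Ifnar2, a chain of the type I interferon receptor chosen after its values were seen, lay below all 20 others at 19.3, 17.7 and 16.9 CPM in LLC against 21.7 to 52.9 CPM (median 39.2) in the others (−1.04 ± 0.06). Socs1, an inhibitor of JAK kinases, was higher (1.77 ± 0.14), and Ifngr1, a chain of the IFNg receptor, was not called (−0.90 ± 0.05).

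Antigen presentation was lower in part. Of 19 MHC class I presentation genes 9 were lower and 0 higher, with a median of −0.98 (−1.02 floored), and without YUMMER1.7 the count was 5 lower and 1 higher. H2-K1, a classical class I heavy chain, read 16.0, 14.7 and 14.6 CPM in LLC and 7.12 to 719 CPM (median 302) in the others (log2 difference −3.50 ± 0.10, edgeR adjusted p = 5.6e-20). B16.1 was lower still, at 8.23 ± 0.974 CPM, so the groups overlapped. H2-D1, the other classical chain, read 249.7, 257 and 257 CPM in LLC and 59.0 to 1280.0 CPM (median 589) in the others, under the 2-fold limit (log2 difference −0.77 ± 0.05). B2m, the light chain, read 200.0, 205 and 194 CPM in LLC and 116 to 1873 CPM (median 407) in the others (log2 difference −1.12 ± 0.05). H2-Q4 (−4.39 ± 0.21), H2-Q7 (−2.27 ± 0.29) and the immunoproteasome subunit Psmb9 (−2.31 floored) were lower, while the peptide transporter Tap2 was not called (0.84 ± 0.07). Psmb9 was not called without replicate 2 of KPC.2 (log2 difference −1.78). Reads of class I genes can be shared between near-identical copies, and CT26.2 and Renca carry BALB/c alleles, so the levels of single H2 genes are uncertain. The summed level of the list was 3582 to 3667 CPM in the LLC libraries, against 3319 to 7576 CPM in the others, which overlap. With IFNb 7 of these genes were higher and 2 lower in LLC than in the other lines (median 0.55), and with IFNg 0 and 8 (median −0.92). H2-K1 in LLC read 318, 343 and 323 CPM with IFNb and 249 and 241 CPM with IFNg.

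Cd274, which encodes the checkpoint ligand PD-L1, read 2.56, 2.66 and 2.81 CPM in LLC and 3.51 to 42.1 CPM (median 10.4) in the 20 others (log2 difference −2.22 ± 0.15, edgeR adjusted p = 1.7e-12). All 3 LLC libraries lay below every other library. With IFNb it read 83.1, 82.2 and 80.3 CPM in LLC and with IFNg 66.5 and 63.0 CPM. Of 23 checkpoint and immune evasion genes 7 were higher and 2 lower (median −0.24, −0.66 floored), and the lower count was 6 without B16.1, 5 without MC38.7 and 4 without KPC.2. The second lower one, chosen after its values were seen, was Nectin2, a ligand of DNAM-1 and TIGIT, at 9.86, 10.8 and 9.84 CPM in LLC and 19.3 to 122 CPM (median 52.1) in the others (log2 difference −2.24 ± 0.06). Ptges, a prostaglandin E synthase, was the one member above all other lines, at 171, 171 and 164 CPM in LLC against 0 to 137 CPM (median 46.8) in the others (floored log2 difference 3.41). Its upstream enzyme Ptgs2 (2.08 floored), Nectin3 (3.52 floored) and the checkpoint protein Vsir (2.79 floored) were also higher, though Panc02.3 made more Ptgs2, 1077 ± 12.6 CPM, than LLC, 103 ± 6.46 CPM (SD, n = 3 each). Of 5 NKG2D ligands, which flag stressed cells to natural killer cells, Raet1d (1.78 floored) and Raet1e (1.62 floored) were higher and Ulbp1 was lower (−2.96 ± 0.15), with 3 lower without MC38.7.

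Genes of NF-kB and innate sensing differed in both directions. Of 23 NF-kB and innate sensing genes 4 were higher and 6 lower (median 0.21), and 4 lay below all other lines. The background over all tested genes was 13.0% higher, 7.64% lower and 1.34% below all other lines. Cgas, the sensor of cytosolic DNA, read 0, 0.0555 and 0.128 CPM in LLC, 3 counts in all, and 0.313 to 36.3 CPM (median 9.20) in the others, which were 256 times higher (95% counting interval 87.4 to 1241). The groups did not overlap, though CPM in the lowest other library was small too. Tlr3 (−2.46 ± 0.14), an endosomal sensor of double-stranded RNA, and the NF-kB genes Relb (−1.60 ± 0.08) and Nfkbie (−1.98 ± 0.12) were the other 3, chosen after their values were seen. Tmem173, which encodes STING, the adaptor below cGAS, was higher at 58.3, 56.8 and 53.9 CPM in LLC against 0 to 57.7 CPM (median 25.9) in the others (floored log2 difference 2.47). It too was chosen after its values were seen, and the groups overlapped slightly. The DNA sensor Aim2 (2.69 ± 0.09) and the inflammasome sensor Nlrp3 (2.07 floored) were higher as well, as was Tlr2, a receptor for bacterial lipoproteins, which was under the 2-fold limit when floored (0.51). Tlr9, an endosomal DNA sensor in none of the lists and chosen after its values were seen, stood at 1.81 ± 0.178 CPM in LLC (SD, n = 3) and 0 CPM in the other lines. Birc3, an NF-kB target that blocks cell death, was lower (−3.53 ± 0.37), and Tlr4, the receptor for endotoxin, was not called (0.91 ± 0.07). Of 30 chemokines and cytokines 4 were higher and 3 lower (9 higher without Panc02.3, 7 lower without B16.1 and 5 lower without CT26.2). The counts of 4 and 3 lie near the background of 13.0% and 7.64%. Cxcl10 (−5.53 ± 0.53) and Ccl5 (−5.38 floored), which draw T cells, were lower, and Ccl2 (3.20 floored) and Ccl7 (2.06 floored), which draw monocytes, were higher. Ccl5 was not called without replicate 2 of KPC.2 (log2 difference −4.61).

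**Figure D3:**
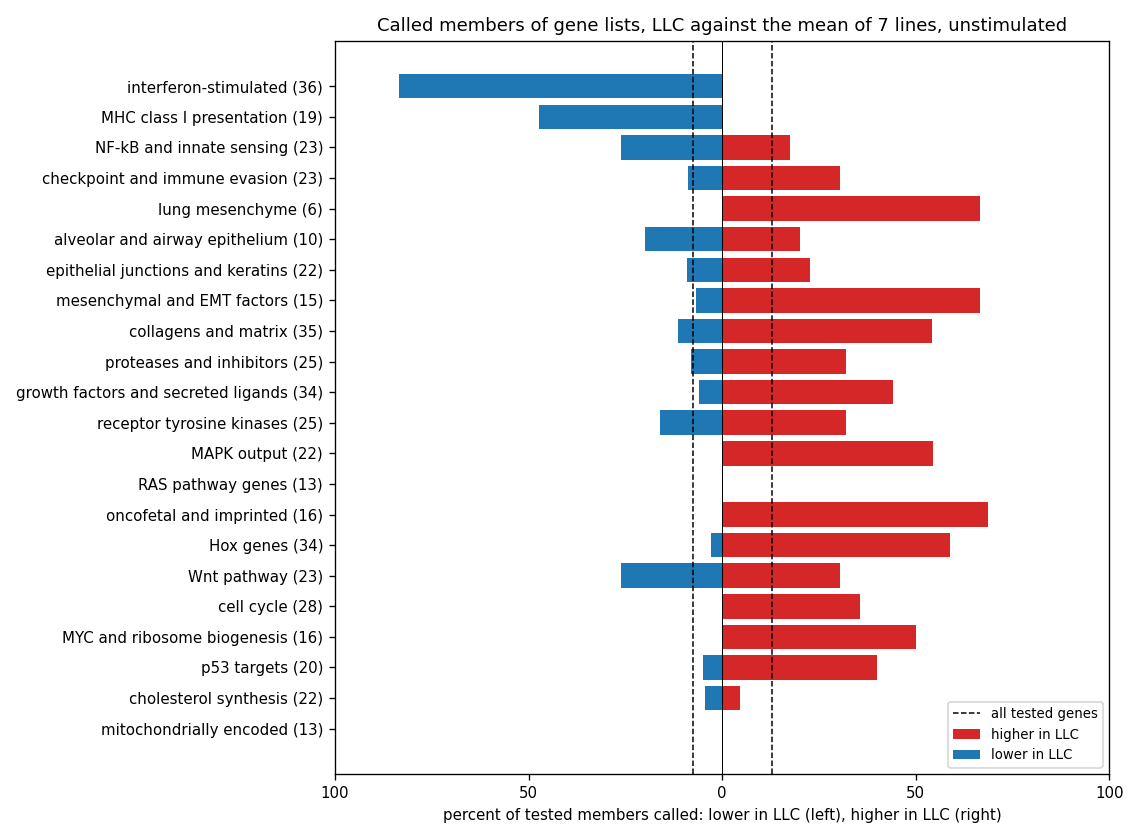
Share of the tested members of each gene list called lower (left) and higher (right) in LLC than in the mean of the 7 other lines, in percent; dashed lines mark the shares over all tested genes, 7.64% and 13.0%. Interferon-stimulated genes have the longest bar on the lower side, and the lung mesenchyme, oncofetal and mesenchymal lists lie far right of the dashed line.

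Most matrix genes tested were higher in LLC than in the mean of the other lines on the log2 scale. Of 35 collagen and matrix genes 19 were higher and 4 lower (2 lower without YUMMER1.7), with a median of 1.62 (1.53 floored). LLC had the highest mean of the 8 lines for 3 of the 35, and 22 had 3 or fewer counts in some line. The summed level of the list was 9771 to 10118 CPM in the LLC libraries, inside the 1574 to 24239 CPM of the others. Nid1, which joins laminin to collagen IV in basement membrane, read 838, 781 and 798 CPM in LLC and 0 to 364 CPM (median 26.6) in the others (floored log2 difference 5.25). Col4a1, a chain of collagen IV, read 1368, 1339.8 and 1353 CPM in LLC and 1.20 to 938 CPM (median 331) in the others (log2 difference 3.30 ± 0.04). Its partner chain Col4a2 (2.88 ± 0.04) was also above all 20 other libraries, as were both genes just given, and the 2 collagen chains were chosen after their values were seen. The members with the widest rises were the proteoglycan Bgn (8.15 floored), the matricellular protein Thbs2 (7.86 floored) and Col3a1 (7.26 floored). For these, YUMMER1.7 or MC38.7 made more: Bgn stood at 420.2 ± 14.6 CPM in LLC and 1930.2 ± 95.3 CPM in YUMMER1.7, and Thbs2 at 719 ± 12.6 CPM in LLC and 1003 ± 11.2 CPM in MC38.7 (SD, n = 3 each). Col1a1, the main chain of fibrillar collagen I, was lower at 1.43, 1.61 and 2.04 CPM in LLC against 0.0903 to 396 CPM (median 11.4) in the others (log2 difference −2.99 ± 0.30), and was chosen after its values were seen. Postn had 0 counts in LLC and was not called. Of 25 proteases and inhibitors 8 were higher and 2 lower (median 0.10), with 6 lower without B16.1. Plau, the urokinase activator of plasminogen, read 160.5, 167 and 156 CPM in LLC and 0 to 76.4 CPM (median 20.4) in the others (floored log2 difference 5.59), with no overlap. Mmp3, stromelysin, was higher, at 148 ± 3.66 CPM in LLC, against 611 ± 16.4 CPM in YUMMER1.7, and Mmp13 (3.01 floored) and Adam19 (2.72 floored) were higher too.

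**Figure D4:**
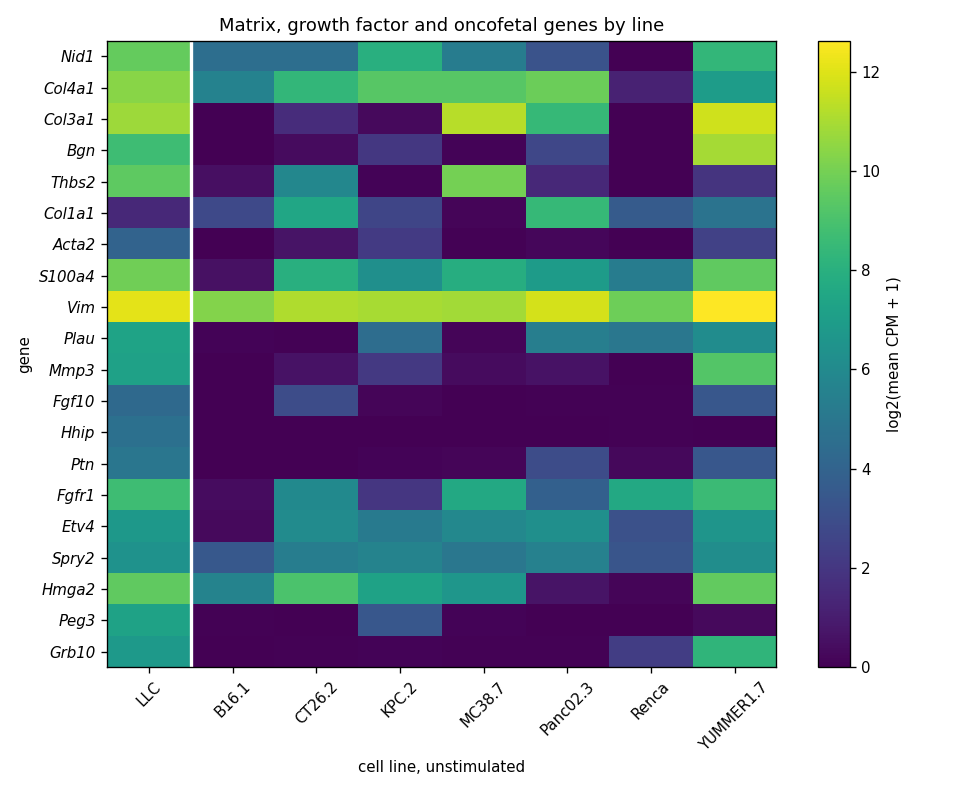
Mean level of 20 genes in unstimulated cells of the 8 lines, as log2(mean CPM + 1), one column per line; lighter (yellow) cells are higher. LLC is high for Nid1, Col4a1, Fgf10, Fgfr1, Hmga2 and Peg3 and low for Col1a1, while Bgn, Col3a1 and Mmp3 were also high in YUMMER1.7.

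Most tested genes of embryonic lung mesenchyme were higher in LLC. In the lung, mesenchymal Fgf10 drives the branching of the epithelium, and Hhip limits Hedgehog signals from it. Of 6 tested lung mesenchyme genes 4 were higher and 0 lower (median 5.38, 3.70 floored). The summed level of the list was 62.8 to 65.8 CPM in the LLC libraries, inside the 33.3 to 199 CPM of the others. Fgf10 read 16.8, 20.9 and 18.3 CPM in LLC and 0 to 11.2 CPM (median 0.0759) in the others (floored log2 difference 5.56), with no overlap, and Hhip is given above. Tbx4 (3.87 floored), a T-box factor of lung mesenchyme and hindlimb, and Foxf2 (3.53 floored) were higher, with B16.1 and KPC.2 above LLC. Foxf1 (−0.70 floored) and the Hedgehog target Gli1 (−1.91 floored) were not called, and Tbx5 with 3 counts in LLC, Tcf21 with 0 and Wnt2 with 1 were too low to test. Of 34 growth factors and secreted ligands 15 were higher and 2 lower (median 0.74, 0.11 floored), and without B16.1 6 were lower with a median of 0.10. Ptn, pleiotrophin, was above all other lines at 29.1, 33.6 and 26.5 CPM in LLC against 0 to 11.1 CPM (median 0.0359) in the others (floored log2 difference 5.95). Fgf7, a ligand for epithelial FGF receptors, was higher (3.98 ± 0.09), as was the TIE2 ligand Angpt1 (3.60 floored), though CT26.2 and MC38.7 made more Fgf7. Fgf1 was higher too (1.26 floored), while Fgf2 (−0.20 ± 0.25), Fgf13 (−1.97 floored) and Fgf21 (−2.71 floored) were not called. Pdgfb had 0 counts in LLC and Inhba 0.719 CPM, and neither was called.

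Of 25 receptor tyrosine kinases 8 were higher and 4 lower (median −0.35). Fgfr1, an FGF receptor, read 421, 428 and 417 CPM in LLC and 0.208 to 405 CPM (median 61.7) in the others (log2 difference 3.91 ± 0.04, edgeR adjusted p = 5.6e-29). The 3 LLC libraries were above all others, with YUMMER1.7 at 392 ± 16.06 CPM next below. The other FGF receptors Fgfr2 (−3.68 floored), Fgfr3 (−2.34 floored) and Fgfr4 (−1.85 floored) were not called. Pdgfrb (−4.43 ± 0.20), Ephb2 (−4.72 ± 0.46) and Epha7 (−6.02 floored) were lower, the last not without replicate 2 of CT26.2 (log2 difference −6.41). Of 13 RAS pathway genes 0 were called, with a median of 0.19. Nras, a RAS GTPase, read 164, 162 and 156 CPM in LLC and 84.9 to 206 CPM (median 127) in the others (log2 difference 0.37 ± 0.04). Transcript levels carry no allele here, and mutations were not analysed. Of 22 genes that follow MAPK activity 12 were higher and 0 lower (median 1.23, the same floored), and the higher count was 10 to 13 without any 1 other line. They included the feedback inhibitor Spry4 (4.08 floored), the ETS factor Etv1 (3.80 floored) and the EGFR ligands Areg (2.47 floored) and Ereg (1.68 floored), and CT26.2 or YUMMER1.7 reached above LLC for all 4. The summed level of the MAPK list was 2125 to 2170 CPM in the LLC libraries, inside the 589 to 3922 CPM of the others. Etv4, Spry2 and Spred2 lay above all 20 others and were chosen after their values were seen. Etv4 read 104, 105 and 103 CPM in LLC and 0 to 102 CPM (median 59.6) in the others (log2 difference 2.29 ± 0.07), and Spry2 90.0, 84.2 and 82.8 CPM in LLC and 9.07 to 72.8 CPM (median 42.6) in the others (log2 difference 1.53 ± 0.04). Phlda1 (−0.69 ± 0.06) and Epha4 (−3.28 floored) were not called.

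Most tested genes of embryonic and fetal growth were higher in LLC than in the mean of the other lines. Of 16 oncofetal and imprinted genes 11 were higher and 0 lower (median 2.40, 2.34 floored), and the count was 11 as well without any 1 other line. Of the 16, 13 had 3 or fewer counts in some line, so the count of 0 cannot show that none were lower. The summed level of the list was 2909 to 2942 CPM in the LLC libraries, inside the 295 to 3006 CPM of the others. Hmga2, a chromatin protein of embryonic cells, read 747, 758 and 749 CPM in LLC and 0.104 to 812 CPM (median 98.0) in the others (floored log2 difference 4.63). YUMMER1.7 overlapped LLC at 766 ± 40.1 CPM. Besides Peg3, Grb10 (7.48 floored), an imprinted adaptor that restrains growth factor receptors, and Peg10 (5.25 floored), a gene derived from a retrotransposon, were higher, with YUMMER1.7 and B16.1 above LLC. Igf2bp2, an RNA-binding protein of fetal tissue, lay above all other lines at 276, 273 and 259.9 CPM in LLC against 23.6 to 182 CPM (median 141) in the others, and was chosen after its values were seen. Igf2 and Plagl1 had 0 counts in LLC and were not called, although Panc02.3 made 1014 ± 33.2 CPM of Igf2. Of 34 Hox genes, which set position along the body axis, 20 were higher and 1 lower (median 1.30, 0.74 floored), with 4 lower without B16.1 and 3 without YUMMER1.7. Hoxa11 (4.70 floored), Hoxd10 (4.48 floored), Hoxd9 (4.34 floored) and Hoxd8 (3.65 floored) led, and Renca was above LLC for all 4. None of the Hox genes had all 3 LLC libraries above all 20 others, although the mean of Hoxa2 was highest in LLC at 2.84 CPM, and Hoxd13 had 0 counts in LLC.

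Proliferation and ribosome genes were moderately high. Of 28 cell cycle genes 10 were higher and 0 lower (median 0.87), and 17 more passed the test at under 2-fold. The count stood near the limit: it was 2 without KPC.2, 16 without B16.1 and 15 without MC38.7. Mcm4, a subunit of the replicative helicase, read 383, 371 and 373 CPM in LLC and 77.3 to 285 CPM (median 114) in the others (log2 difference 1.36 ± 0.04). LLC lay above all 20 for Mcm4, as for Mcm3 (1.31 ± 0.05) and Mcm5 (1.25 ± 0.05), while Plk1 overlapped (1.16 ± 0.08). Myc itself read 253, 266 and 272 CPM in LLC and 23.5 to 333 CPM (median 183) in the others (log2 difference 1.04 ± 0.04), with CT26.2 above. Of 16 MYC and ribosome biogenesis genes 8 were higher and 0 lower (median 0.99), and their summed level was 8248 to 8295 CPM in the LLC libraries, against 2559 to 7969 CPM in the others. The groups did not overlap on this scale, which leaves out the TMM factors. Cad, which starts pyrimidine synthesis, read 476, 449.8 and 468 CPM in LLC and 82.0 to 304 CPM (median 156) in the others (log2 difference 1.60 ± 0.04), and Nolc1, a nucleolar protein, was above all others too (1.28 ± 0.07). LLC libraries were also the deepest. With all libraries thinned to the shallowest, a setting added after seeing the data, the log2 difference was 1.30 for Mcm4 and 1.54 for Cad, both still called, and 0.95 for Myc, which was under 2-fold.

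Among tumour suppressors and oncogenes 2 of 20 were higher, Myc and the cyclin Ccnd2 (log2 difference −0.36 without Renca), and 0 lower (median 0.32). Trp53 read 259.7, 274 and 254 CPM in LLC and 43.3 to 238 CPM (median 172) in the others, above all 20 but under 2-fold (log2 difference 0.87 ± 0.04). Cdkn2a, the locus of p16 and p19ARF, had 0 counts in LLC and in 4 of the other lines, and up to 339 CPM in KPC.2. Of 20 p53 targets 8 were higher and 1 lower, and the higher count was 4 without MC38.7, 5 without KPC.2 and 5 without Renca. Gdf15, a stress cytokine, was lower (−3.24 floored; not called without replicate 3 of B16.1, log2 difference −2.79), and Eda2r, a TNF receptor family member, higher (2.53 floored). Of 23 Wnt pathway genes 7 were higher and 6 lower (median −0.49, −1.47 floored). Dkk2, a secreted Wnt antagonist, stood at 235 ± 8.96 CPM in LLC and 219 ± 12.0 CPM in YUMMER1.7 (7.12 floored), and the ligand Wnt10a was lower (−6.06 floored). The receptors Fzd2 (−2.47 ± 0.08) and Fzd7 (−2.22 ± 0.09) lay below all other lines and were chosen after their values were seen. Of 16 Hippo genes and of 13 mitochondrially encoded genes 0 were called.

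**Figure D5:**
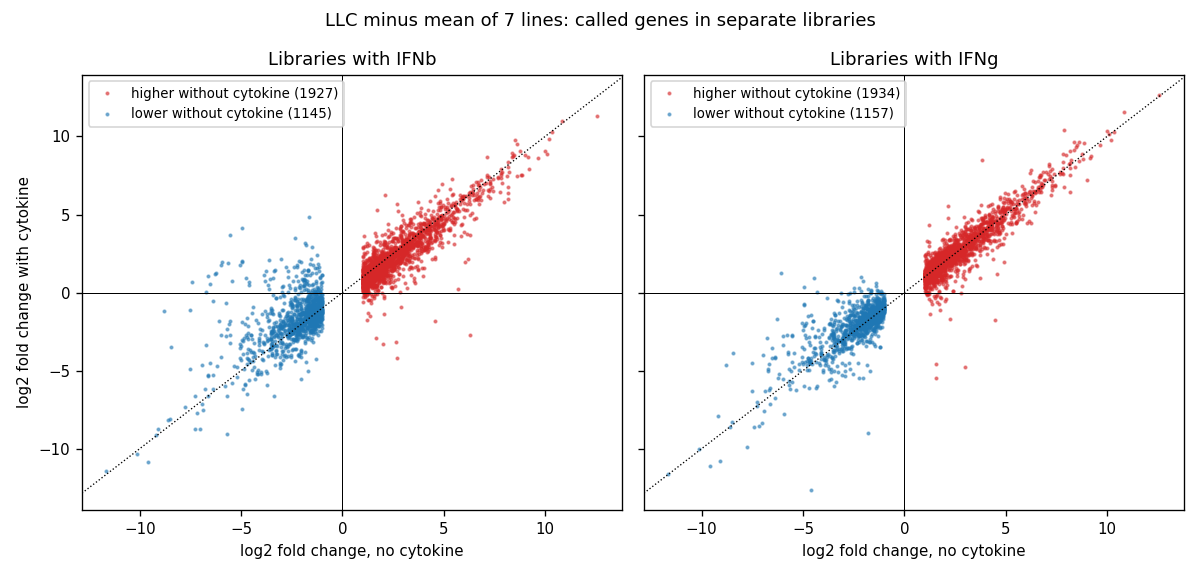
Log2 difference of LLC from the mean of the 7 other lines in NS libraries (horizontal axis) and in IFNb or IFNg libraries (vertical axis) for genes called in NS libraries; each point is 1 gene and the diagonal marks equal differences. Most points have the same sign on both axes, and with IFNb 51 of 1145 genes called lower in NS libraries were called higher.

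The comparison was repeated in libraries it had not used. Of the 1999 higher genes 1927 could be tested in the 24 IFNb libraries, and 1509 (78.3%) were called higher there and 0 lower. Of the 1172 lower genes 1145 could be tested, and 721 (63.0%) were called lower and 51 higher. In the 23 IFNg libraries, of which LLC had 2, 1667 of 1934 (86.2%) were called higher again and 838 of 1157 (72.4%) lower again. Of genes above all other lines, 278 of 377 (73.7%) were called higher with IFNb and 349 of 384 (90.9%) with IFNg. Of those below all, 166 of 206 (80.6%) were called lower with IFNb and 186 of 206 (90.3%) with IFNg, and 5 were called higher with IFNb. App had a log2 difference of −8.19 ± 0.11 with IFNb and −8.61 ± 0.10 with IFNg. Adcyap1r1 in LLC read 95.4, 96.5 and 92.8 CPM without cytokine, 79.6, 85.0 and 84.1 CPM with IFNb and 87.9 and 93.7 CPM with IFNg. A test of the change in LLC's difference, in one fit of all 70 libraries, called 515 of 15326 genes (3.36%) with IFNb and 115 (0.750%) with IFNg. The lines were the same in all 3 comparisons, so the repeat covers libraries and not lines.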

How the data were processed

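RNA was measured by sequencing in 70 libraries of 8 mouse cancer cell lines, and this account uses the 23 unstimulated libraries, with the 47 cytokine libraries as a repeat. RNA from RNeasy columns went into stranded NEB Ultra II libraries, per the labels' protocols. Trimmomatic 0.36 and kallisto did the trimming and quantification on mm10/GRCm38, per the submitters' processing notes. The values are the authors' estimated counts for each gene, unscaled whole numbers, and columns were matched to samples by title. The step from transcripts to genes is not given in the sources used here. From it, TMM scaling, edgeR's filter on low counts and the quasi-likelihood test were run in edgeR 4.0.16 and R 4.3.3, with 1 coefficient per line (prior degrees of freedom 8.599) and Benjamini-Hochberg adjustment over all tested genes. The contrast was LLC minus the equally weighted mean of the 7 other lines. The same model was fitted to the IFNb and to the IFNg libraries apart, and 1 fit of all 70 tested the change with cytokine. DESeq2 1.42.0 and limma 3.58.1 (voom) were alternatives, and the code was tested on simulated data.

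The members and the 42 gene lists (863 genes) were chosen with earlier results of these data known. Named genes are the 15 widest gaps in either direction between LLC and all other libraries, the 10 largest rises and falls among genes with more than 3 counts in every line, up to 4 called and 2 uncalled members of each list, and 20 fixed genes; others are marked. Counting intervals (95%) and the floor of 3 counts cover counting error only. Replicates differed by more than sampling noise, with chi-square per degree of freedom from 2.04 to 10.5. Positions are from GENCODE on GRCm38 and promoters from RefSeq on GRCm38.p6. Xist, H19 and Meg3 are not analysed here, and some other genes are not reported here.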

Additional observations from a re-analysis of the deposited data

Results flagged for a closer look

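For the named genes listed here, the difference between LLC and the other lines changed with a cytokine by at least 2-fold, in edgeR's test of that change itself over all 70 libraries (Benjamini-Hochberg adjusted p under 0.05). Values are the log2 difference with cytokine minus that without, so a positive value means that LLC stood higher among the lines with the cytokine. With IFNb the antiviral and chemokine genes had Cxcl10 at 9.24, Oasl1 at 8.12, Mx2 at 7.68, Gbp3 at 7.55, Oasl2 at 7.16, Ddx60 at 6.81, Apol9b at 6.43, Ifih1 at 5.84 and Ccl5 at 3.13. The presentation and checkpoint genes had Cd274 at 3.88, H2-Q4 at 3.51, H2-K1 at 2.54, Psmb8 at 2.54, Psmb9 at 2.53, H2-D1 at 1.36 and B2m at 1.14. The signalling genes had Stat2 at 3.02 and Irf9 at 1.50. Cd274 is one whose side changed: its log2 difference was 1.62 with IFNb and −2.22 without cytokine (adjusted p = 2.4e-32). Outside the interferon lists, Gdf15 stood at 2.97, Napsa at 2.44, Otub2 at 1.51, Myc at 1.34, Hmox1 at 1.33, Scand1 at 1.09, Prrx1 at 1.08 and Pcolce2 at −1.10.

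With IFNg the change was positive for Gbp3 at 4.66, Apol9b at 3.01, Oasl2 at 3.01, Ccl5 at 2.85, Cxcl10 at 2.77, Ifih1 at 2.20, Igsf3 at 2.13 and H2-Q4 at 1.54. It was negative for H2-Q7 at −2.24, Socs1 at −2.00, Bgn at −1.78, Itgb7 at −1.74 and Tap2 at −1.20. Fitted values of genes with few counts in some line, such as Oasl1, Mx2, Ddx60 and Bgn, depend on the model's prior, and the LLC group with IFNg held 2 libraries.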

How the results depend on the processing

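The choice of error mattered most to the counts: with lines as units 17 genes were called higher and 4 lower, with the same counts above and below every other library, and 230 genes (1.50%) had an unadjusted p under 0.05 in limma. At a limit of 4-fold 1036 were higher and 531 lower, with 187 above and 88 below all other libraries, and 703 higher genes passed against the arithmetic mean. DESeq2 called 2051 lower and limma-voom 2761, in IFNb libraries 1920 and 2477 lower, and in IFNg libraries 2217 and 2833. In edgeR a gene at 0 CPM in another line could have a very large SE and so go uncalled. Trim62, for example, had a fitted log2 difference of −6.14 with an SE of 9016. The cause of the gap between the methods was not tested. The count above all others was 592 without YUMMER1.7, and the count below was 318 without B16.1 and 393 against C57BL/6 lines alone, which are fewer libraries to exceed. Leaving out 1 library gave 1948 to 2079 higher, 1119 to 1203 lower, 375 to 419 above and 209 to 230 below all others. Against single lines it gave 5018 to 5307 (B16.1), 4924 to 5319 (CT26.2), 5488 to 5773 (KPC.2), 3848 to 4086 (MC38.7), 5140 to 5423 (Panc02.3), 5886 to 6244 (Renca) and 4168 to 4410 (YUMMER1.7). With 1 LLC library left out the IFNb counts were 2045 to 2059 higher and 1111 to 1146 lower, and the IFNg counts 1961 to 1982 and 1168 to 1225, where 1 LLC library is assumed to vary like the other groups. Replicate numbers did not pair the libraries (77 pairs, r −0.06 to 0.07), and a replicate block gave 1978 higher and 1156 lower and moved the call of 1 of 266 named genes. Among named genes the sign reversed for Abcb1b (−0.21 against C57BL/6 lines, −0.60 without Renca), Ccnd2 (−0.38 and −0.36), Cyp1b1 (−0.73 with lines as units, −0.27 against C57BL/6 lines) and Ncam1 (−0.66 against C57BL/6 lines). RLE size factors left 261 of the 266 named calls in place, DESeq2 208, limma-voom 204 and lines as units 102. Thinning to the shallowest library and the arithmetic mean were added after seeing the data, as were the list counts without 1 line and the libraries left out against single lines and with cytokine.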

Other observations

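Further gene groups of unstimulated LLC are given as counts over tested members, beside 13.0% higher and 7.64% lower of all tested genes. Of 18 integrins 5 were higher and 3 lower (5 lower without MC38.7): Itgb7, an integrin beta chain known from lymphocytes, stood at 307 ± 5.43 CPM in LLC and 658 ± 73.8 CPM in CT26.2 (SD, n = 3 each), Itga7, a laminin receptor chain, had a log2 difference of 3.27 ± 0.07, and Itga4 was lower (−2.02 ± 0.29). Of 8 germline and cancer testis genes 3 were higher, the X-linked Rhox5 (6.81 floored), Xlr3c (4.40 floored) and Xlr3b (1.82 floored). Of 12 Notch genes 3 were higher and 4 lower, with the ligand Dll1 higher (2.64 floored; fitted 3.05, or 3.66 without replicate 1 of CT26.2) and the target Hes1 lower (−2.64 ± 0.14). Of 27 NRF2 targets 3 were higher and 2 lower (4 lower without CT26.2, MC38.7 or YUMMER1.7), with Nqo1 (1.87 ± 0.09) higher and Hmox1, heme oxygenase, lower (−1.39 ± 0.09). Of 15 genes of aldehyde and xenobiotic metabolism 4 were higher, 2 without Renca.

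Of 19 glycolysis and hypoxia genes 3 were higher and 2 lower (median 0.39), with Egln3 (3.79 floored) and the lactate exporter Slc16a3 (1.83 floored) higher and the carbonic anhydrase Car9 lower (−1.78 ± 0.38). Of 22 cholesterol synthesis genes 1 was higher and 1 lower (median −0.44), with 4 lower without CT26.2 and 3 without MC38.7. The lower one was Ebp, at 9.48, 10.2 and 9.71 CPM in LLC and 11.1 to 85.4 CPM (median 23.7) in the other libraries (log2 difference −1.36 ± 0.07), below all 20. Of 7 squamous genes 1 was higher, Krt15 at 0.285 CPM, whose floored log2 difference of 0.44 was under the 2-fold limit, and Panc02.3 reached 2.33 CPM. Of 4 neuroendocrine genes 2 were higher and 1 lower. Of 3 tested X- and Y-linked genes 0 were higher and Kdm5d was lower (−1.19 ± 0.20), with reads that its X-linked copy can share.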
